A study of Mus musculus with 35 samples.

Results

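A pair of blood-forming cell populations of the mouse embryo, E9.5 pro-HSC/HPC and E10.5 pre-HSC II, was compared for open chromatin at every peak of an ATAC-seq count table. HSC stands for hematopoietic stem cell, HPC for hematopoietic progenitor cell, and E9.5 and E10.5 are days of embryonic development. The 7 libraries compared, 3 of pro-HSC/HPC and 4 of pre-HSC II, were chosen by population and day, and they belong to a series of 35 samples in 9 groups. The other groups hold endothelial cells (EC) and hemogenic endothelium (HE) of E8.5, E9.5 and E10.5, and pre-HSC I of E10.5. For every library 1500 sorted cells were pooled, carrying a transgene that the labels name 23GFP, also in EC and HE, and the library was amplified with 13 PCR cycles. The tissue is labelled E10.5 AGM+VU for pre-HSC II, where AGM is the aorta-gonad-mesonephros region. For pro-HSC/HPC the tissue label reads E8.5 PAS+VU, which names another day than the sample titles, and the titles were followed. Population, day and labelled tissue therefore change together and cannot be told apart in this comparison. The labels name neither litters nor sort markers for these pools, so p-values measure only the spread between these samples, which may be technical.

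Hematopoietic stem cells arise in the embryo from hemogenic endothelium of the large arteries, which gives rise to clusters of round blood cells that bud into the vessel. Cells of these clusters mature through precursors named pro-HSC, pre-HSC I and pre-HSC II, which turn from endothelial to blood surface markers step by step until they can reconstitute an adult recipient. In ATAC-seq a transposase cuts accessible DNA, so that the reads in a peak rise with the share of cells in which the region is open and with how open it is, and these 2 contributions cannot be told apart in a pool. Peaks are given by their position on build mm9 as deposited. No annotation or sequence of that build was used here, so peaks carry no gene names, and the population labels were not checked against marker genes.

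Both populations differed at many regions, and regions that were less accessible in pre-HSC II were the larger class with the scaling used throughout. Of 76018 peaks 67108 had enough counts to be tested, and 3654 of them (5.44%) were called at an adjusted p of 0.05 with edgeR's quasi-likelihood test. Accessibility was higher in pre-HSC II at 530 peaks (0.79%) and lower at 3124 (4.66%). Peaks with more than 3 counts in each population numbered 492 among the higher and 2530 among the lower ones, and their median fold was 4.73 and 3.10. With peaks lacking counts in one population set at a lower bound, the medians over all called peaks were 4.92 and 3.56. All 4 pre-HSC II libraries had 0 counts at 331 of the lower peaks, and all 3 pro-HSC/HPC libraries had 0 counts at 19 of the higher ones. The libraries of the populations did not overlap at 464 of the 530 higher and 2700 of the 3124 lower peaks, against 4.42% of all tested peaks in the higher and 11% in the lower direction.

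The split between higher and lower peaks depended on how the libraries were scaled. TMM scaling, used here, put the median log2 fold change of all tested peaks at -0.18. RLE size factors, total counts and loess offsets moved the peaks by a median of 0.23, 0.25 and 0.25 on the log2 scale. RLE factors called 866 peaks higher (1.29%) and 1772 lower (2.64%), total counts 869 (1.29%) and 1765 (2.63%), and loess offsets 1426 (2.12%) and 1404 (2.09%). DESeq2 called 1839 higher (2.74%) and 2313 lower (3.45%), and gave no adjusted p at 14312 of the 67108 peaks. Higher peaks made up 14.5% of the calls with TMM, 32.8% with RLE factors, 33.0% with total counts, 50.4% with loess offsets and 44.3% with DESeq2. A fit of these 7 libraries alone, in which 30237 peaks passed the count filter, called 829 higher (2.74%) and 781 lower (2.58%), or 51.5% higher. No peak was called in opposite directions by the TMM fit and any of these settings. A set of 360 higher (0.536% of tested peaks) and 596 lower peaks (0.888%) was called the same way under the 4 scalings, DESeq2 and the fit of 7 libraries. Only peaks tested in the fit of 7 libraries and with an adjusted p in DESeq2 could enter this set.

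Depth and spread differed between the populations as well. Total counts in peaks ran from 1232426 to 3810683 in pro-HSC/HPC and from 456770 to 1241216 in pre-HSC II, so that 3 counts stood for 0.816 to 2.31 CPM (read counts relative to the TMM-scaled library total) in the first and for 2.23 to 5.21 CPM in the second. The biological coefficient of variation was 0.251 in pro-HSC/HPC and 0.396 in pre-HSC II. Counts were divided differently over peak widths. In pre-HSC II peaks of 2000 bp or more held 17.3% to 19.2% of the counts and those under 500 bp 14.9% to 17.0%. The corresponding ranges in pro-HSC/HPC were 21.3% to 21.8% and 11.8% to 13.2%, without overlap. The tenth of peaks with the most counts held 52.7% to 56.0% of counts in pre-HSC II and 55.7% to 58.2% in pro-HSC/HPC, which overlap. With every library thinned to 456770 counts, 648 peaks were called higher (2.97%) and 943 lower (4.33%) of the 21782 that passed the filter, so that higher peaks made up 40.7% of the calls. The part of the spread and of the width shares in the calls was not tested. Leaving out 1 library moved the counts. The higher peaks numbered 199, 123 and 335 without pro-HSC/HPC library 1, 2 or 3, and 234 and 295 without pre-HSC II library 1 or 2. The lower peaks numbered 1599 and 2069 without pro-HSC/HPC library 1 or 2, and 2063 without pre-HSC II library 2.

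**Figure D1:**
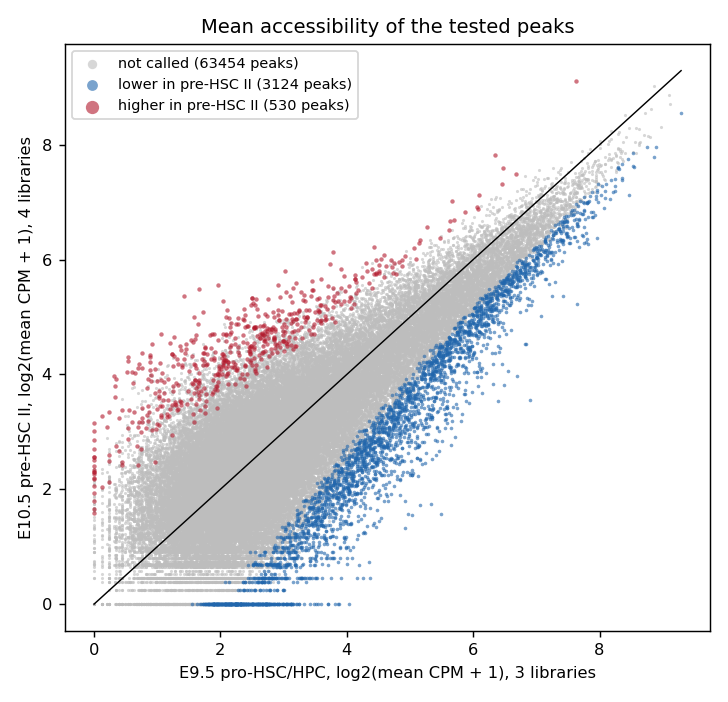
Mean CPM of each tested peak in E9.5 pro-HSC/HPC (x axis, 3 libraries) and E10.5 pre-HSC II (y axis, 4 libraries), both as log2(mean CPM + 1), with the line of equal levels. The 530 peaks called higher in pre-HSC II (red) lie mostly at low levels in pro-HSC/HPC, the 3124 called lower (blue) reach the highest levels, and uncalled peaks (grey) fill the space between.

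The peaks that were lower in pre-HSC II with the smallest adjusted p were strongly open in pro-HSC/HPC and lost most, though not always nearly all, of their signal in pre-HSC II. The peak chr17:10582608-10584086 stood at 109, 143 and 103 CPM in the pro-HSC/HPC libraries and at 13.9, 12.5, 4.78 and 11.9 CPM in those of pre-HSC II. Every pre-HSC II library lay well under every pro-HSC/HPC library, and the log2 difference was -3.47 ± 0.35 (edgeR, SE, adjusted p = 4.99e-10). This peak was also open in all 6 EC and HE groups, at means of 54.7 to 184 CPM, and in pre-HSC I at 97.3 ± 32 CPM (SD, n = 3). Pre-HSC I libraries 2 and 3 agreed within sampling noise and were counted as 1 sample. The level in pre-HSC II was thus the lowest of the 9 groups.

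Levels among EC and HE varied more at chr18:60820717-60821920. It stood at 55.2, 45.3 and 31.6 CPM in pro-HSC/HPC and at 3.47, 0, 0 and 4.45 CPM in pre-HSC II, 342 counts against 8. The log2 difference was -4.31 ± 0.50 (edgeR, SE, adjusted p = 9.26e-08). Mean levels in HE were 24.9 CPM at E8.5, 81.6 CPM at E9.5 and 87.1 CPM at E10.5, and those in EC were 4.15, 21.9 and 32.1 CPM in the same order. Pre-HSC I still had 39.6 CPM, so among the blood-forming populations the low level was seen in pre-HSC II.

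At chr15:36419295-36420387 pro-HSC/HPC had 37.6, 36.0 and 13.9 CPM and pre-HSC II 3.47, 2.50, 0 and 0 CPM, with a log2 difference of -4.66 ± 0.57 (edgeR, SE, adjusted p = 1.76e-07). A wider peak kept more of its signal. At chr12:59368202-59370905, 2703 bp wide, pro-HSC/HPC had 180, 193 and 137 CPM and pre-HSC II 69.4, 27.5, 23.9 and 40.8 CPM, a log2 difference of -2.11 ± 0.26 (edgeR, SE, adjusted p = 1.76e-07). Pre-HSC II library 1 was the highest of its group there, though still under every pro-HSC/HPC library. At chr3:90249595-90251806 the same library was the lowest of its group, with 10.4 CPM against 37.6, 50.2 and 48.3 CPM in the other pre-HSC II libraries and 223, 192 and 183 CPM in pro-HSC/HPC. The shallowest library thus stood at opposite ends of its group at these peaks.

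The other 7 of the 12 lower peaks picked by the naming rule were chr3:115411497-115413161, chr12:8392849-8394543, chr5:135015442-135016464, chr8:106618748-106621517, chr1:80214388-80215723, chr4:86531417-86533210 and chr10:120901700-120902703. Folds over the 12 ran from 4.32 to 25.2 and adjusted p from 4.99e-10 to 1.02e-06 (edgeR). All 12 were 1003 to 2769 bp wide. Mean levels in pre-HSC I ran from 19.6 to 167 CPM, and at 10 of the 12 they lay between those of pro-HSC/HPC and pre-HSC II. None lost its call or changed direction under another scaling, in DESeq2 or without any 1 library, and a call in the fit of 7 libraries was part of the rule.

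Peaks that were higher in pre-HSC II were fewer, and several went from a few reads to a clear signal. At chr1:175934645-175935168 pro-HSC/HPC had 2.18, 2.77 and 1.54 CPM and pre-HSC II 62.5, 40.1, 43.0 and 30.4 CPM, a log2 difference of 4.27 ± 0.81 (edgeR, SE, adjusted p = 0.000412). EC and HE of all days stood at 0.271 to 0.915 CPM there and pre-HSC I at 4.69 ± 0.97 CPM (SD, n = 3). Of the 9 groups pre-HSC II alone exceeded 5 CPM at this peak. At chr1:175817338-175817842, on the same chromosome, pro-HSC/HPC had 2.72, 3.69 and 2.31 CPM and pre-HSC II 57.3, 45.1, 45.4 and 37.1 CPM, with a log2 difference of 3.95 ± 0.77 (edgeR, SE, adjusted p = 0.000604).

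The smallest adjusted p among the named higher peaks, 0.000133 by edgeR, belonged to chr10:45540944-45541330. It had 0, 0.924 and 0.77 CPM in pro-HSC/HPC and 10.4, 17.5, 19.1 and 14.1 CPM in pre-HSC II. With 3 counts against 55 the ratio was 36.8 (95% counting interval 11.9 to 184). EC, HE and pre-HSC I stood at means of 1.93 to 5.14 CPM, above pro-HSC/HPC and under pre-HSC II. At chr13:107603203-107603987 pro-HSC/HPC had 1.63, 1.85 and 1.54 CPM and pre-HSC II 92, 28.8, 8.36 and 31.9 CPM. These pre-HSC II libraries were all above those of pro-HSC/HPC but spread widely among themselves, and the log2 difference was 4.52 ± 0.86 (edgeR, SE, adjusted p = 0.000445).

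Other higher peaks were open in both populations. The peak chr5:52867295-52868281 had 12.5, 35.1 and 13.9 CPM in pro-HSC/HPC and 64.2, 77.6, 70.5 and 80.2 CPM in pre-HSC II, a log2 difference of 1.84 ± 0.33 (edgeR, SE, adjusted p = 0.000203). Its pre-HSC II libraries lay close together, while pro-HSC/HPC library 2 stood above the other 2. EC, HE and pre-HSC I had means of 30.1 to 50.6 CPM, between both populations. The peak chr6:91662165-91663861 had 24.8, 21.2 and 17.0 CPM in pro-HSC/HPC and 69.4, 62.6, 70.5 and 49 CPM in pre-HSC II, with a log2 difference of 1.55 ± 0.33 (edgeR, SE, adjusted p = 0.00206).

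The remaining named higher peaks were chr4:91046032-91046626, chr8:117937874-117938395, chr5:15975588-15976705, chr1:175339215-175339555, chr3:109944491-109947244 and chr7:71107497-71107876. At the last of these pro-HSC/HPC had 1 count and pre-HSC II 25, a ratio of 50.1 (95% counting interval 8.21 to 2059). Over the 10 named peaks with more than 3 counts in each population folds ran from 2.92 to 22.9. The 12 peaks were 340 to 2753 bp wide, and at 10 of them pre-HSC I lay between pro-HSC/HPC and pre-HSC II. Their direction and call held under the other scalings, in DESeq2 and without any 1 library, while the call at chr7:71107497-71107876 was lost with a replicate block.

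**Figure D2:**
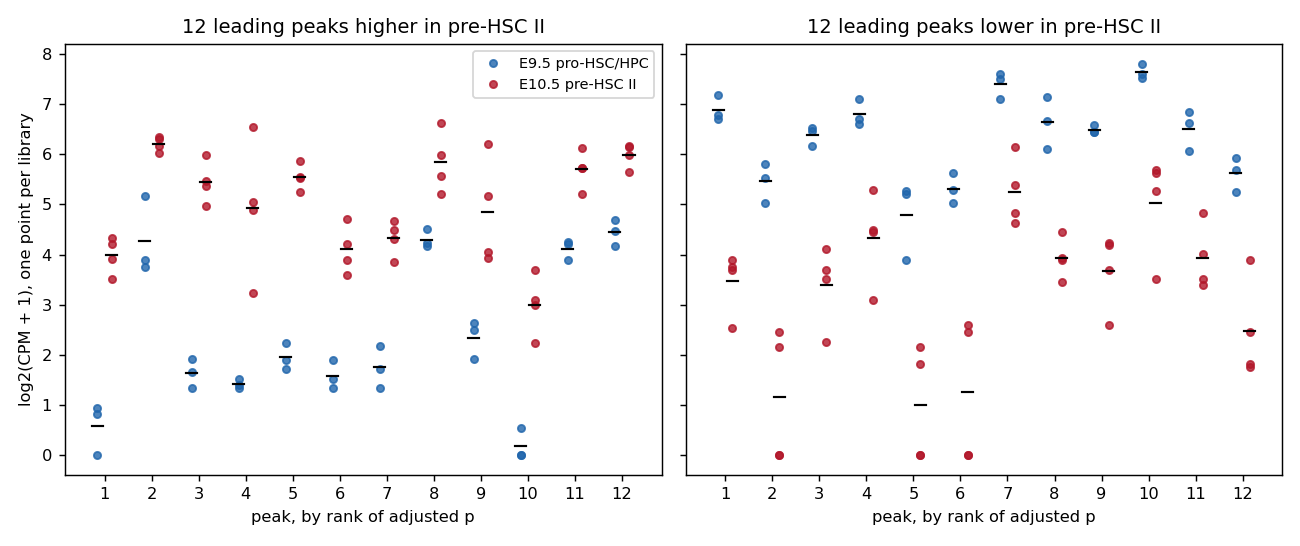
Levels of the 12 named peaks in each direction, as log2(CPM + 1) with 1 point per library (blue, 3 libraries of E9.5 pro-HSC/HPC; red, 4 libraries of E10.5 pre-HSC II) and the mean of the plotted values as a bar, ordered by adjusted p. No red point overlaps the blue points of the same peak, which the naming rule required.

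Across the 9 groups the called peaks set pre-HSC II apart more than pro-HSC/HPC. Peaks called higher had a median of 21.5 CPM in pre-HSC II, 4.12 CPM in pro-HSC/HPC, 6.71 CPM in pre-HSC I and 3.49 to 6.10 CPM in the EC and HE groups. Of these 530 peaks 449 (84.7%) had their highest group mean in pre-HSC II, against 18.6% of all tested peaks. Part of this follows from the choice of the peaks, since pre-HSC II had to exceed pro-HSC/HPC and the other 7 groups shared the fit that called them. Pre-HSC II also had the lowest median depth of the groups, 685088 counts in peaks, and varied more than pro-HSC/HPC (0.396 against 0.251). The part of depth and spread in its place among the groups was not tested, for higher or lower peaks. At 163 of the 530 (30.8%) every pre-HSC II library was above all 30 other samples, which held for 774 (1.15%) of all tested peaks.

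Peaks called lower had a median of 6.05 CPM in pre-HSC II, 23.1 CPM in pro-HSC/HPC, 18.4 CPM in pre-HSC I and 22.4 to 32.9 CPM in the EC and HE groups. The group with the highest mean was most often E9.5 EC, at 900 of the 3124 peaks, followed by E8.5 HE at 621 and E9.5 HE at 619, while pro-HSC/HPC led at 345. An EC or HE group had the highest mean at 2706 of the 3124 (86.6%), against 60.0% of all tested peaks, and pro-HSC/HPC had it at 7048 of the 67108 tested peaks. At 550 of the 3124 lower peaks (17.6%) every pre-HSC II library lay under all 30 other samples, against 635 (0.946%) of all tested peaks. Part of both differences follows from the choice of the peaks, since pre-HSC II had to lie under pro-HSC/HPC. Pre-HSC II had the highest mean at 0 of the lower peaks and at 18.6% of all tested peaks.

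Pre-HSC I, which was sampled on the same day and labelled tissue as pre-HSC II, lay closer to pro-HSC/HPC at most called peaks. It was nearer to pro-HSC/HPC than to pre-HSC II in log2 level at 2704 of the 3124 lower peaks (86.6%) and at 362 of the 530 higher peaks (68.3%), against 61.7% of all tested peaks. Its median distance from pro-HSC/HPC was -0.27 at lower and 0.66 at higher peaks on the log2 scale. From pre-HSC I to pre-HSC II the median step was -1.29 and 1.38. These steps are described without a test because the peaks were chosen with pro-HSC/HPC and pre-HSC II.

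**Figure D3:**
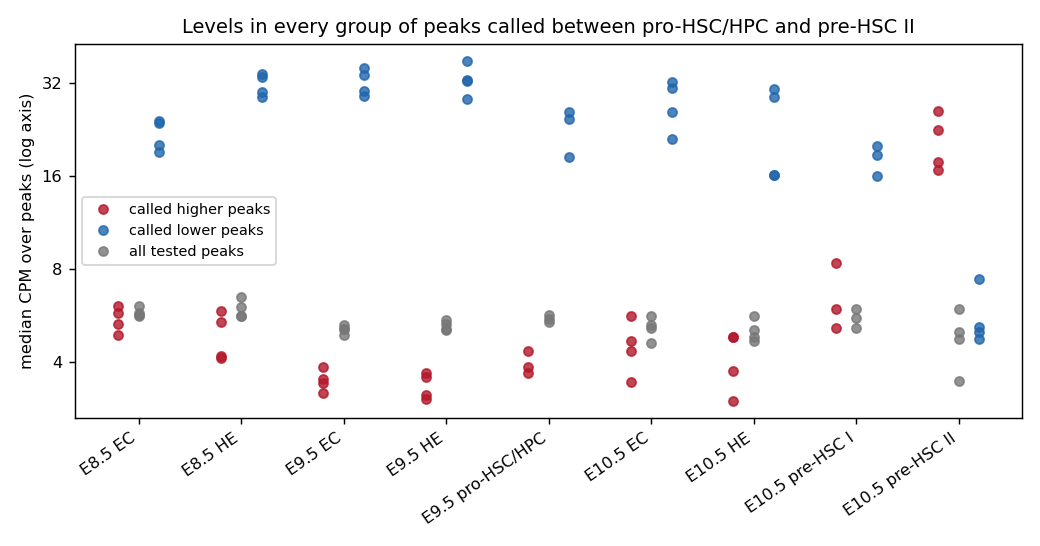
Median CPM (log axis) over the 530 peaks called higher (red), the 3124 called lower (blue) and all 67108 tested peaks (grey), with 1 point per library in each of the 9 groups. In pre-HSC II the red points lie above all blue ones, with group medians of 21.5 and 6.05 CPM, and in the other groups the blue points lie above the red ones.

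A small class of regions was open in pro-HSC/HPC beyond all endothelial libraries and lower in pre-HSC II. All 3 pro-HSC/HPC libraries exceeded all 24 EC and HE libraries at 1112 tested peaks (1.66%), of which 30 (2.70%) were called lower and 13 (1.17%) higher in pre-HSC II. The share of lower peaks in this class was thus under the 4.66% of all tested peaks, and the 30 made up 0.960% of the lower peaks. The peaks of this class given here were chosen after their values were seen. At chr13:11928847-11929878 pro-HSC/HPC had 69.7, 59.1 and 38.5 CPM, pre-HSC II 3.47, 16.3, 2.39 and 13.4 CPM, and pre-HSC I 37.0 ± 23 CPM (SD, n = 3). EC and HE stayed between 1.09 and 12.3 CPM on average. The log2 difference was -2.58 ± 0.51 (edgeR, SE, adjusted p = 0.000879).

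The peak chr16:92822150-92822993 followed the same order, with 44.1, 68.8 and 37.8 CPM in pro-HSC/HPC, 24.6 ± 15 CPM (SD, n = 3) in pre-HSC I and 10.4, 12.5, 14.3 and 8.91 CPM in pre-HSC II. At chr16:74526600-74527484 pre-HSC I was already low, at 6.24 ± 1.9 CPM (SD, n = 3), with 35.9, 36.5 and 28.5 CPM in pro-HSC/HPC and 0, 10.0, 4.78 and 4.45 CPM in pre-HSC II. Mean pre-HSC I levels thus lay between the populations at chr16:92822150-92822993 and near pre-HSC II at chr16:74526600-74527484. This difference between the regions was not tested. The log2 fold changes were -2.13 ± 0.47 and -2.74 ± 0.54 (edgeR, SE, adjusted p = 0.00311 and 0.000813). Both calls were lost with a replicate block. At chr16:92822150-92822993 HE changed by -2.11 ± 0.48 from E9.5 to E10.5 (edgeR, SE, adjusted p = 0.0164). The interaction with HE was -0.02 there and was not called (edgeR, adjusted p = 0.997), so no fall beyond that of HE was resolved. The interaction with HE was not called at chr16:74526600-74527484 or chr13:11928847-11929878 either (edgeR, adjusted p = 0.668 and 0.142).

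Because the populations were sampled 1 day apart, the change was set beside the change of HE and of EC from E9.5 to E10.5, which carry the same days and tissue labels and share no library with the populations, though all entered the same fit. HE changed at 42 peaks upwards (0.0626%) and 332 downwards (0.495%), and EC at 45 (0.0671%) and 167 (0.249%). Of the 332 peaks that fell in HE, 113 (34.0%) were among the 3124 lower ones here (3.62% of these), and none was higher. Of the 167 that fell in EC, 41 (24.6%) were among the lower ones (1.31% of these) and 1 was higher. Among peaks that rose with the day, 5 of 42 in HE (11.9%) and 0 of 45 in EC were called higher in pre-HSC II. Of the 45 in EC, 3 (6.67%) were called lower. Of all tested peaks 0.79% were higher and 4.66% lower, and these lists were not matched for level or width. Over all lower peaks the median day change was -0.35 in HE and -0.18 in EC on the log2 scale. Over all higher peaks it was 0.34 in both, against -0.01 and 0.04 over all tested peaks. At the lower peaks the shallow E10.5 HE libraries 1 and 4 each had a median of 16.1 CPM, and libraries 2 and 3 had 28.9 and 30.7 CPM. The E9.5 HE libraries had medians of 28.5 to 37.8 CPM there. The part of depth in the day change of HE was not tested. The difference of pre-HSC II from pro-HSC/HPC had a median of -1.89 and 2.30 at the same lower and higher peaks, which were chosen by it.

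The difference itself between the population change and the day change was tested as an interaction in the same edgeR fit. It was called against the HE change at 220 peaks (0.328%), 46 towards higher (0.0685%) and 174 towards lower (0.259%) accessibility in pre-HSC II. Against the EC change it was called at 606 peaks (0.903%), 81 towards higher (0.121%) and 525 towards lower (0.782%). At chr18:60820717-60821920 the HE change was 0.12 ± 0.28 and the EC change 0.53 ± 0.30 (SE), and the populations differed beyond them by -4.43 ± 0.60 and -4.84 ± 0.60 on the log2 scale (edgeR, SE, adjusted p = 1.27e-05 and 1.48e-06). At chr17:10582608-10584086 the corresponding interactions were -3.17 ± 0.43 and -3.15 ± 0.43 (edgeR, SE, adjusted p = 1.27e-05 and 1.56e-05). The fall at both regions was thus larger than the change of either endothelial population between the same days.

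Of the 12 named lower peaks 11 were called in the interaction with HE and 12 in that with EC, and of the 12 named higher peaks 4 and 5. The named peaks were chosen by the same population difference that enters the interaction, so these counts are no independent evidence. At the higher region chr6:91662165-91663861 the fitted EC change from E9.5 to E10.5 was -0.80 ± 0.29 and was not called (edgeR, SE, adjusted p = 0.301). The interaction with EC was 2.34 ± 0.44 there (edgeR, SE, adjusted p = 0.00213). At chr3:109944491-109947244, in contrast, the fitted changes were 1.10 ± 0.31 in HE and 0.66 ± 0.31 in EC, neither of them called (edgeR, SE, adjusted p = 0.0832 and 0.509). Neither interaction was called at this region (0.55 ± 0.47 and 0.99 ± 0.47, edgeR, SE, adjusted p = 0.697 and 0.339). A rise beyond the change of the day was not resolved at this region.

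The interaction counts rested on single libraries. Against HE they were 115 and 54 without pro-HSC/HPC library 1 or 2, 79 and 448 without pre-HSC II library 2 or 4, 108, 111 and 140 without E9.5 HE library 1, 3 or 4, and 349, 108, 77 and 459 without E10.5 HE library 1, 2, 3 or 4. Against EC they were 307 and 338 without pro-HSC/HPC library 1 or 2, 389 and 1088 without pre-HSC II library 2 or 4, 366, 402 and 287 without E9.5 EC library 1, 3 or 4, and 325 and 380 without E10.5 EC library 2 or 3. The E9.5 libraries EC 3, EC 4 and HE 4 had 5716, 2560 and 3573 CPM in a single peak of chromosome X, where the 7 libraries compared had 86.8 to 539 CPM. Without these 3 libraries 115 and 149 interaction calls were left, against HE and EC. Without the shallow E10.5 HE libraries 1 and 4 the interaction with HE was called at 1588 peaks. With each fit limited to the 4 groups involved, the interaction with HE was called at 12 peaks and that with EC at 607.

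The peaks were also set beside the HE against EC difference of each day. No EC or HE library stands on either side of the contrast that called the peaks, but all of them entered the same fit, its count filter, scaling and spread. At E8.5, 881 peaks (1.31%) were higher in HE than in EC. Of these 286 (32.5%) were lower in pre-HSC II than in pro-HSC/HPC, which is 9.15% of the lower peaks, and none was higher. At E9.5, 916 peaks (1.36%) were higher in HE, of which pre-HSC II was lower at 191 (20.9%) and higher at 3, and 815 (1.21%) were lower in HE, of which 85 (10.4%) were lower and 14 higher. At E10.5 the 481 peaks (0.717%) higher in HE held 101 (21.0%) that were lower in pre-HSC II, and the 1052 (1.57%) lower in HE held 171 (16.3%). At E8.5 the 87 peaks (0.13%) lower in HE held 2 (2.30%) that were lower and 3 (3.45%) that were higher in pre-HSC II. Of all tested peaks 4.66% were lower. The differences between these shares were not tested, and the lists were not matched for level or width, with which the share of lower peaks also rose.

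Lower peaks were called more often among wide and highly accessible regions with TMM scaling, and their shares depended on the scaling. Their median width was 1046 bp, against 615 bp for higher and 548 bp for all tested peaks. Of peaks under 500 bp 1.19% were lower and 0.573% higher, and of those of 2000 bp or more 18.3% were lower and 0.544% higher. With loess offsets, which reduced the trend with level, the widest peaks were called higher in 5.62% and lower in 4.67%. By level, peaks were divided into 4 equal classes by their mean in EC and HE. Of the most accessible class 13.2% were lower with TMM and 5.29% with loess offsets, and of the least accessible class 0.471% and 0.292%. The median log2 fold change ran from 0.24 in the least to -0.43 in the most accessible class with TMM. With loess offsets it ran from 0.38 to -0.0009, so part of the trend remained. Higher peaks in these 2 classes were 0.53% and 1.07% with TMM and 4.05% and 1.41% with loess offsets. The least accessible class spanned 0.0898 to 3.02 CPM in EC and HE. In pre-HSC II 3 counts stood for 2.23 to 5.21 CPM, so a fall from such levels could hardly be called. With loess offsets peaks under 500 bp were called higher in 0.87% and lower in 0.70%, so both shares rose with width. The part of detection in these shares was not tested.

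**Figure D4:**
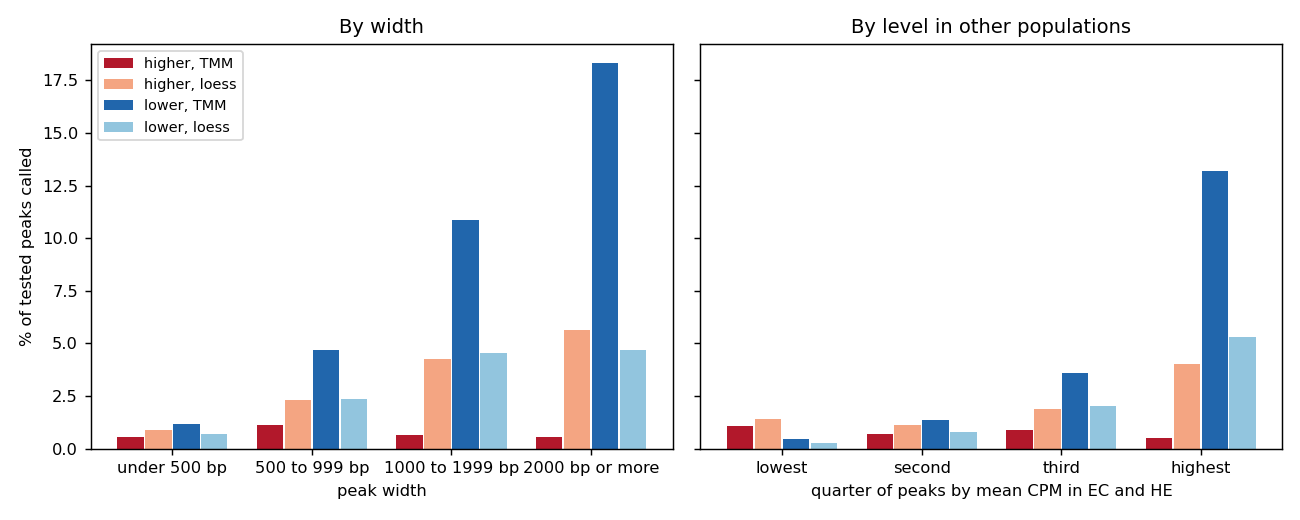
Percent of tested peaks called higher (red) or lower (blue) in pre-HSC II, by peak width (left) and by mean CPM in EC and HE in 4 equal classes (right), with TMM scaling in dark and loess offsets in light colours. Lower calls climb to 18.3% in peaks of 2000 bp or more with TMM and are 4.67% there with loess offsets.

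Chromosomes differed in the share of called peaks under both scalings. On chromosome 19 the lower peaks made up 9.38% of 1695 tested ones and 1 peak was higher, and with loess offsets 3.83% were lower and 0.354% higher. Chromosome 1 had the largest share of higher peaks with TMM, 77 of 4612 (1.67%), and with loess offsets 3.79% were higher and 1.24% lower. The median log2 fold change was -0.48 on chromosome 19 and 0.01 on chromosome 1 with TMM, and -0.17 and 0.30 with loess offsets.

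One stretch of chromosome 1 held several of the higher peaks. Among 2526 windows of 1 Mb, that from 175 to 176 Mb had the most higher peaks, 6 of 34 tested, followed by that from 146 to 147 Mb on the same chromosome with 5 of 19. The stretch was chosen after its values were seen and is described without a test. From 175 to 177 Mb 53 peaks were tested, of which 7 were higher and none lower, and the median log2 fold change of all 53 was 0.83. From E9.5 to E10.5 the median change of the same 53 peaks was 0.48 in HE and 0.40 in EC, against -0.01 and 0.04 over all tested peaks. The starts of the 7 peaks spanned 945527 bp, and 3 of them were among the 12 named higher peaks. At chr1:175339215-175339555, the first of the 7, pro-HSC/HPC had 5.17, 2.77 and 4.62 CPM and pre-HSC II 72.9, 35.1, 14.3 and 15.6 CPM, a log2 difference of 2.98 ± 0.63 (edgeR, SE, adjusted p = 0.00166).

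At the far end of the stretch, chr1:176284742-176285122 had 2 counts in pro-HSC/HPC and 51 in pre-HSC II, a ratio of 51.1 (95% counting interval 13.5 to 434). At chr1:175410609-175411281 pro-HSC/HPC had 0 counts and pre-HSC II 22, at least 14.7-fold higher when 3 counts are taken as the floor of the pro-HSC/HPC group, and 16 of the 22 counts came from library 4. The 3 named peaks kept their call without any 1 library, and the other 4 lost it without at least 1 library. By number, most lower peaks lay in a window of chromosome 18 from 38 to 39 Mb, with 23 of 102 tested peaks (22.5%), and in 2 windows of chromosome 10 from 79 to 81 Mb, with 21 of 158 (13.3%) and 21 of 163 (12.9%). Windows with fewer tested peaks had larger shares, such as 15 of 48 (31.3%) on chromosome 7 from 16 to 17 Mb and 15 of 53 (28.3%) on chromosome 11 from 70 to 71 Mb.

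**Figure D5:**
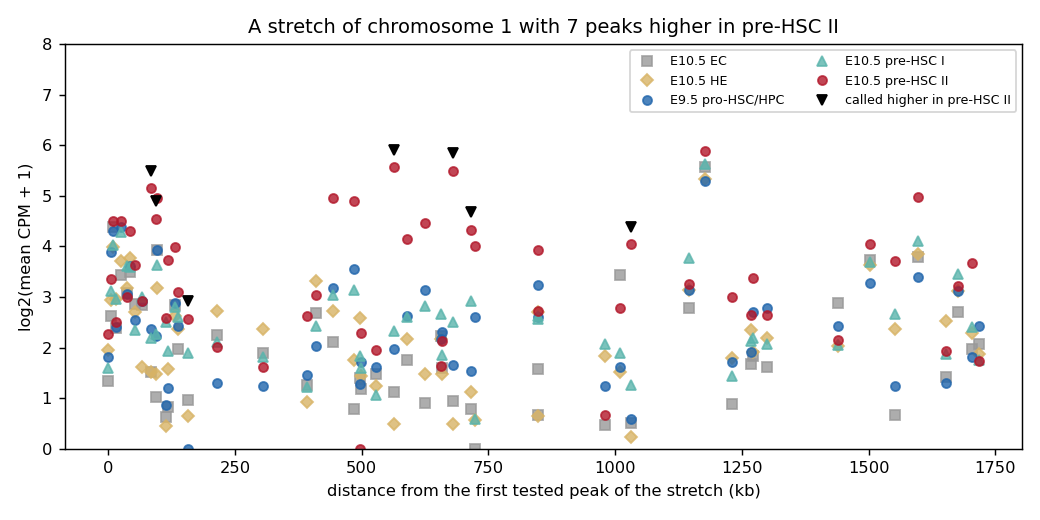
Mean accessibility, as log2(mean CPM + 1), of the 53 tested peaks in a stretch of chromosome 1, by distance in kb from the first of them, in 5 groups. Triangles mark the 7 peaks called higher in pre-HSC II, where its points (red) lie above those of the other 4 groups.

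Most regions were not resolved at this depth. An absolute log2 fold change of 1 or more was fitted at 18130 peaks (27.0%) that did not pass the adjusted threshold, and their median levels were 3.63 CPM in pro-HSC/HPC and 3.05 CPM in pre-HSC II, where 3 counts already stand for up to 5.21 CPM. Small differences could be bounded at 5510 peaks (8.21%), whose log2 fold change plus or minus 2 SE lay between -1 and 1. These had median levels of 41.5 CPM in pro-HSC/HPC and 39.1 CPM in pre-HSC II.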

How the data were processed

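The authors deposited raw, unscaled read counts in 76018 peaks for all 35 samples. The submitters' processing notes name build mm9, the read tools Bowtie 1.0.0 and Trim Galore 0.3.1, the peak tools DiffBind 1.14.6 and MACS2 2.0.1, and bedtools 2.17.0, deepTools and SAMtools. Not given in the sources used here are read filtering, any shift for the transposase and how reads were assigned to peaks. Among counts of 10 to 49, between 54.1% and 78.2% per library were even, so reads may have come in pairs and counting intervals may be too narrow. Without molecular identifiers, intervals and floors cover counting error only.

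The difference between pre-HSC I libraries 2 and 3 was under the sampling noise (chi-square of 0.461 per degree of freedom), and they were averaged into 1 sample, leaving 34. After filterByExpr by group had removed 8910 peaks, counts were scaled by TMM. One two-sided quasi-likelihood fit over all groups (edgeR 4.0.16, 25 residual degrees of freedom) gave the p-values, which were adjusted by Benjamini-Hochberg over all tested peaks and called at 0.05. This fit gives all groups a common spread per peak, although pre-HSC II varied more. The fit of 7 libraries alone has 5 residual degrees of freedom. CPM is the count relative to the TMM-scaled total. An SE is the absolute log2 fold change over the square root of F, which is unstable where the log2 fold change is near 0. Each interaction subtracts the log2 change of HE or EC between E9.5 and E10.5 from that between the populations.

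Named peaks are the 12 per direction with the smallest adjusted p that were called in both fits, changed by 1 or more on the log2 scale and had no overlap between libraries, and 6 per direction and interaction that were also called between the populations. With 0 counts in a group the fold is a bound against 3 counts over the group, and with 1 to 3 counts a ratio with an exact 95% interval. The populations, peaks and rules were chosen with earlier results of these data known. Planned gene lists and motifs were not used here, for want of an mm9 annotation and sequence. Alternatives were RLE factors, total counts, loess offsets (limma 3.58.1), DESeq2 1.42.0, no count filter, thinning to 456770 counts, pre-HSC I libraries apart, only the groups compared, a replicate block and each library left out. Leaving out libraries high on chromosome X, or E10.5 HE libraries 1 and 4, was chosen after seeing the data. Where a run gave a named peak no adjusted p, that run was left out of the check of its call. The tests were checked on simulated counts (R 4.3.3, Python 3.11.15, scipy 1.17.1).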

Additional observations from a re-analysis of the deposited data

Results flagged for a closer look

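The change from pro-HSC/HPC to pre-HSC II differed from the E9.5 to E10.5 change of HE at 220 peaks and from that of EC at 606 peaks, by interaction tests in edgeR (0.328% and 0.903% of the peaks tested). Among the peaks named for the HE interaction, chr14:68963623-68964090 had an interaction of 4.10 on the log2 scale, chr18:60820717-60821920 of -4.43, chr17:10582608-10584086 of -3.17, chr15:36419295-36420387 of -4.29 and chr12:59368202-59370905 of -2.02. Against EC the interaction was 3.77 at chr3:133289404-133290584, 2.34 at chr6:91662165-91663861, 3.91 at chr1:64124940-64125674, 5.13 at chr4:142951134-142952318 and 3.41 at chr8:117937874-117938395. In the lower direction it was -4.84 at chr18:60820717-60821920, -3.15 at chr17:10582608-10584086, -4.41 at chr15:36419295-36420387, -3.19 at chr14:104284041-104285244 and -2.85 at chr2:85120517-85122195. Over both interactions 24 entries were named, and some peaks were named in both. The other 9 of these entries had 3 or fewer counts in a group. A fitted interaction then depends on the prior count, and no value is given for them. The call at chr14:68963623-68964090 was lost in the fit of only the groups compared and without E9.5 HE library 3 or pro-HSC/HPC library 2.

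Some values of pre-HSC II had 1 library apart from the other 3, by Dixon's criterion for 4 values at the 95% level. This was found for 4 of 46 values tested. For normal values chance alone marks about 1 in 20, a rate that need not hold for low counts. At chr1:175970646-175971219 library 1 had 33.0 CPM, at chr4:142951134-142952318 library 2 had 27.5 CPM, and at chr6:119368597-119369531 library 3 had 2.39 CPM where the others had 0. With the others at 0 any level above 0 meets the criterion, and the 2.39 CPM rested on 2 counts. In library 3 chromosome X held 2.44% of counts, the lowest share of the 4 libraries.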

How the results depend on the processing

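Against 530 higher and 3124 lower peaks, RLE size factors called 866 and 1772, total counts 869 and 1765, loess offsets 1426 and 1404, and the fit of only the groups compared 829 and 781. DESeq2 called 1839 higher peaks, and thinning to the smallest library 943 lower ones. Without 1 library the higher peaks ran from 123 to 557 and the lower ones from 1599 to 3725. With the replicate number as a block in a fit of the 7 libraries alone, 289 higher and 258 lower peaks were called, against 829 and 781 without the block. Deviations from the group mean correlated at -0.0002, 0.0098 and 0.0307 between libraries with the same number, over 20326 peaks. Between libraries with different numbers the correlations ran from -0.089 to 0.107. Deviations of shallow libraries hold much counting noise, so these values cannot tell whether the numbers pair the pools. The block dropped the call at chr7:71107497-71107876. Of 6 lower peaks checked from the class above all EC and HE libraries, 4 lost their call with the block. These were chr16:92822150-92822993, chr16:74526600-74527484, chr13:44596932-44597794 and chr5:13269927-13270453. For the change beyond HE, called at 220 peaks, only the groups compared gave 12, leaving out EC and HE libraries of E9.5 that were high on chromosome X gave 115, leaving out the shallow E10.5 HE libraries gave 1588, and leaving out single libraries gave 54 to 459. For the change beyond EC, called at 606, RLE factors gave 359, leaving out the libraries high on chromosome X gave 149, and single libraries gave 287 to 1088. The causes were not tested. Thinning used fewer peaks, 21782, and the fits of 7 libraries, with or without the block, fewer peaks and samples. None of the named peaks reversed its direction in a run. Gene list and motif alternatives were not run. In pre-HSC II library 1 a level under 5.21 CPM rests on fewer than 3 counts.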

Other observations

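The peak with the highest level among those called higher was chr5:60433955-60434314, chosen after its values were seen, with 193, 124 and 274 CPM in pro-HSC/HPC and 856, 521, 444 and 390 CPM in pre-HSC II. Its log2 fold change was 1.49 ± 0.37 (SE, adjusted p = 0.00841 by edgeR), and it was called under all scalings, in DESeq2 and in the fit of 7 libraries.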
